A study of Mus musculus with 8 samples.

Results

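Fibroblasts of skeletal muscle sit between the fibres and make much of the connective tissue around them. The 9 genes described here are Dcn, Lum, Fbn1, Fn1, Postn, Thy1, Dpt, Pdgfra and Sparc, which are fibroblast markers or code for matrix proteins other than collagen. They were found by gene name among the non-control probes of a mouse Agilent array. They have 17 of its 41174 probes, and 16 of these were among the 24476 probes bright enough to be tested.

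The gene Pknox1 codes for Prep1, a TALE homeodomain protein that regulates transcription and binds DNA as a partner of Pbx proteins. The study compared Prep1deltaSM mice, in which Prep1 was ablated in skeletal muscle, with Prep1f/+ mice. All 8 mice were males of the C57BL/6 strain aged 8 weeks, 4 of each genotype, and total RNA of the tibialis anterior, a shin muscle made mostly of fast fibres, was labelled with Cy3 and hybridised to 1 array per mouse. The promoter and cell type that drive the recombinase, and whether Prep1f/+ mice carry it, are not given in the sources used here. The Prep1f/+ genotype as labelled names 1 floxed allele. The RNA came from whole muscle, so each value mixes fibres, fibroblasts and every other cell present.

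The matrix around muscle fibres is laid down mainly by interstitial fibroblasts and by fibro-adipogenic progenitors, which carry the PDGF receptor alpha on their surface. Collagen fibrils bind small leucine-rich proteoglycans such as decorin and lumican, which shape fibril width and spacing. Fibrillin-1 builds the microfibrils on which elastic fibres form, fibronectin links cells to the matrix through integrins, and matricellular proteins such as periostin and Sparc tune these contacts.

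The probes are 60-base oligonucleotides, and their sequences fix which piece of each transcript was read. They are shown for genes whose probes gave unlike values (Dcn, Fbn1, Fn1), for Thy1, where both probes were read side by side, and for Lum. Positions are those of the array files, in build mm9. Probes that may lie in a UTR are shown by their first 30 bases only. The files give no exon or UTR annotation. The brighter Dcn probe, chr10:96980233-96980292 on the plus strand, holds 18 codons followed by an in-frame stop codon, given in capitals. The other Dcn probe, chr10:96943347-96943406, is annotated to a RIKEN cDNA clone and lies 36886 bases from the first.
Dcn A_51_P334104: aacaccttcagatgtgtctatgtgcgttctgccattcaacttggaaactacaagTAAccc
Dcn A_52_P252726: gagggatttacagattcacttcatacatac
The Lum probe lies at chr10:97035210-97035269, plus strand, on the same chromosome as Dcn. The Fbn1 probes lie at chr2:125126727-125126786 and chr2:125127254-125127313, minus strand, 527 bases apart.
Lum A_51_P167527: taagcatttgcacggttacttagtgaaact
Fbn1 A_51_P467224: tcacttatgagtatggtgcagtacatgtaa
Fbn1 A_52_P224801: ccagagaccaaataattaaatgaaaaagca
The Thy1 probes lie on the plus strand of chromosome 9. A_51_P420731 is given as chr9:43854991-43855436, a range of 446 bases for 60 bases of probe, so it crosses at least 1 intron. A_52_P479249 lies further 3′, at chr9:43856600-43856659.
Thy1 A_52_P479249: cactgctacagcatctcaccgaggaaagaa
Thy1 A_51_P420731: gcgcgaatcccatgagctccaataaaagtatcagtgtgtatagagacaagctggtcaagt
The 3 Fn1 probes are on the minus strand of chromosome 1, and 2 of them cross introns: A_51_P100856 (chr1:71637422-71639659) near the 3′ end and A_52_P299974 (chr1:71673888-71674646) furthest 5′. A_52_P11817 (chr1:71644127-71644186) lies between them.
Fn1 A_51_P100856: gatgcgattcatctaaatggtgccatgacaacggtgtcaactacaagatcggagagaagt
Fn1 A_52_P11817: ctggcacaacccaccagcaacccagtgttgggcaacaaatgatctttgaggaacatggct
Fn1 A_52_P299974: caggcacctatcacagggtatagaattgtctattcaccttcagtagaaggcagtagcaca

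Values below are log2 signals relative to the 75th percentile of each array, so 0 is the signal of that percentile and a difference of 1 is 2-fold. Between 23787 and 27123 spots per array were well above background, and none was saturated. The number of arrays, 4 per genotype, limits the precision. The arrays lay on 4 slides, each holding 1 array of each genotype, which gives 1 within-slide difference per slide. Pknox1 (probe A_52_P431894) averaged -2.04 ± 0.19 in Prep1deltaSM muscles and -0.28 ± 0.18 in Prep1f/+ muscles (SD, n = 4 each). It fell by 1.76 on the log2 scale (SE 0.13, limma adjusted p = 0.0102), with no overlap, in the direction of the labels. With the slide as a block its limma adjusted p was 0.094. It was the single probe of all those tested that passed an adjusted p of 0.05. The 10 muscle fibre markers, among them Ckm and Acta1, were all detected, and their mean deviation was -0.04 to 0.07 in Prep1deltaSM muscles and -0.14 to 0.09 in Prep1f/+ muscles.

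Of the 16 tested probes of the 9 genes, 13 were lower in Prep1deltaSM muscles and 3 were higher, beside 54.1% of all tested probes below 0. None passed an adjusted p of 0.05 in limma (range 0.182 to 0.938), where 0.00409% of all tested probes did. At an unadjusted p under 0.05 the count was 4 lower and 0 higher, beside 8.11% of all tested probes lower and 9.66% higher. These 4 probes read Dcn, Lum, Fbn1 and Thy1. In no tested probe did the groups separate without overlap, against 5.36% of all tested probes that did so lower and 6.43% higher. The median difference over the 9 genes at their brightest probe was -0.41, beside -0.07 over all 16008 genes, of which 62.7% were below 0. Without Prep1deltaSM replicate 2 or Prep1f/+ replicate 3 the count of 4 became 2. In whole muscle, fewer fibroblasts and less RNA per fibroblast cannot be told apart.

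**Figure D1:**
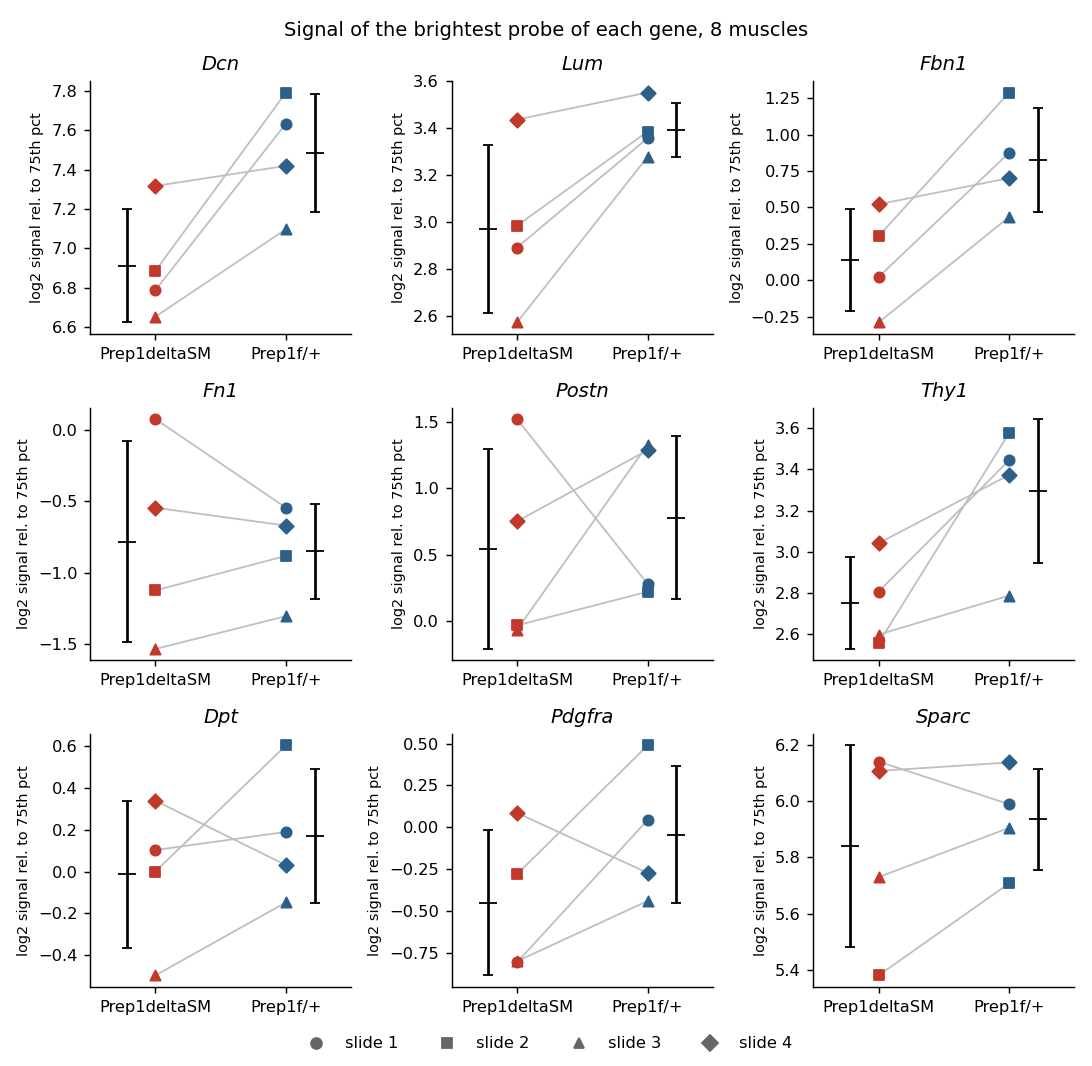
Log2 signal relative to the array's 75th percentile (vertical axis) of the brightest probe of each of the 9 genes in Prep1deltaSM (red) and Prep1f/+ (blue) muscles. Each marker is 1 muscle, its shape gives the slide, grey lines join the muscles of a slide, and bars give the mean ± SD (n = 4). For Dcn, Lum, Fbn1 and Thy1 all 4 lines run lower on the Prep1deltaSM side, and in every panel the groups overlap.

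Both proteoglycan genes were lower in Prep1deltaSM muscles at their main probes. Dcn codes for decorin, which binds collagen fibrils and also TGF-beta. Its probe A_51_P334104 read 6.79, 6.89, 7.32 and 6.65 in Prep1deltaSM replicates 1 to 4, against 7.10, 7.63, 7.79 and 7.42 in Prep1f/+ replicates 1 to 4. Prep1deltaSM replicate 3 was above Prep1f/+ replicate 1, and the remaining Prep1deltaSM muscles were below all Prep1f/+ muscles. The means were 6.91 ± 0.29 in Prep1deltaSM and 7.49 ± 0.30 in Prep1f/+ (SD, n = 4 each), a difference of -0.58 (SE 0.19, 95% interval -1.004 to -0.15), or 67.1% of the Prep1f/+ signal. The adjusted p in limma was 0.184, and the exact two-sided permutation test gave p = 0.0571. That test assigned arrays without keeping the slide pairs, and with 4 against 4 arrays it cannot go below 0.0286. The within-slide differences on slides 1 to 4 were -0.85, -0.91, -0.45 and -0.10, all lower in Prep1deltaSM.

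The Dcn probe with the RIKEN clone annotation did not follow the main probe. It read -3.97, -3.11, -3.43 and -3.99 in Prep1deltaSM and -5.34, -3.56, -3.42 and -4.85 in Prep1f/+ muscles, and it was well above background on 4 Prep1deltaSM and 2 Prep1f/+ arrays. The difference was 0.67 (SE 0.44, limma adjusted p = 0.461), and over the 8 arrays its correlation with the main Dcn probe was 0.12.

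Lum codes for lumican, a keratan sulphate proteoglycan of collagen fibrils. Its single probe read 2.89, 2.99, 3.44 and 2.57 in Prep1deltaSM, against 3.28, 3.36, 3.39 and 3.55 in Prep1f/+ muscles. Prep1deltaSM replicate 3 lay inside the Prep1f/+ range and the other 3 lay below it. The means were 2.97 ± 0.36 in Prep1deltaSM and 3.39 ± 0.12 in Prep1f/+ (SD, n = 4 each), a difference of -0.42 (SE 0.17, 95% interval -0.81 to -0.03, limma adjusted p = 0.254). It was lower on all 4 slides, by values from -0.70 to -0.11, and the exact permutation p was 0.114.

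Fbn1, the gene of the microfibril protein fibrillin-1, had the lowest difference of the 9 genes at the brightest probe. A_51_P467224 read 0.02, 0.30, 0.52 and -0.29 in Prep1deltaSM, against 0.43, 0.88, 1.29 and 0.70 in Prep1f/+ muscles. Here too Prep1deltaSM replicate 3 was above Prep1f/+ replicate 1, with the other 3 Prep1deltaSM muscles below the Prep1f/+ range. The difference was -0.69 (SE 0.22, 95% interval -1.19 to -0.18), or 62.2% of the Prep1f/+ signal, with a limma adjusted p of 0.182 and an exact permutation p of 0.0571. It was lower on all 4 slides, by -0.85, -0.99, -0.72 and -0.18.

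The other Fbn1 probe gave a smaller value. A_52_P224801 read -2.60, -2.19, -2.17 and -3.15 in Prep1deltaSM, against -2.46, -2.22, -1.83 and -2.55 in Prep1f/+ muscles. The groups overlapped, with Prep1deltaSM replicates 1 and 4 below the Prep1f/+ range, and the difference was -0.26 (SE 0.25, limma adjusted p = 0.607). Over the 8 arrays both Fbn1 probes varied together, with a correlation of 0.84.

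Thy1 codes for CD90, a GPI-anchored surface protein of fibroblasts and other stromal cells that neurons and mouse T cells also carry. A_52_P479249 read 2.81, 2.56, 3.04 and 2.60 in Prep1deltaSM, against 2.79, 3.45, 3.58 and 3.37 in Prep1f/+ muscles. Prep1f/+ replicate 1 lay among the Prep1deltaSM values, and the other 3 Prep1f/+ muscles were above all of them. The means were 2.75 ± 0.22 in Prep1deltaSM and 3.30 ± 0.35 in Prep1f/+ (SD, n = 4 each), a difference of -0.54 (SE 0.19, 95% interval -0.97 to -0.12). The limma adjusted p was 0.196 and the exact permutation p was 0.0857, with within-slide differences from -1.02 to -0.19.

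The intron-crossing Thy1 probe gave a similar difference. A_51_P420731 read -2.10, -2.40, -2.34 and -2.65 in Prep1deltaSM, against -2.46, -1.99, -1.63 and -1.57 in Prep1f/+ muscles. The difference was -0.46 (SE 0.21, limma adjusted p = 0.298), lower on all 4 slides, and its correlation with the other Thy1 probe was 0.86. With Thy1 counted by both probes, 5 of the 16 tested probes were lower on all 4 slides, beside 14.8% of all tested probes. By the brightest probe it was 4 of the 9 genes, beside 18.2% of all genes.

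Pdgfra codes for the receptor that marks fibro-adipogenic progenitors. Its main probe, A_51_P345649 at chr5:75593888-75593947, read -0.81, -0.28, 0.09 and -0.80 in Prep1deltaSM, against -0.44, 0.04, 0.49 and -0.27 in Prep1f/+ muscles. The groups overlapped widely, with Prep1deltaSM replicates 1 and 4 below the Prep1f/+ range. The difference was -0.41 (SE 0.26, 95% interval -0.998 to 0.19, limma adjusted p = 0.448), lower on slides 1, 2 and 3 and higher by 0.36 on slide 4. The dim probe A_52_P264283, well above background on 3 Prep1deltaSM and 1 Prep1f/+ arrays, differed by -0.16 (SE 0.30, limma adjusted p = 0.809).

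Dpt codes for dermatopontin, a small matrix protein that binds decorin. Its probe at chr1:166753703-166753762 read 0.10, 0.00, 0.34 and -0.50 in Prep1deltaSM, against -0.15, 0.19, 0.60 and 0.03 in Prep1f/+ muscles. Only Prep1deltaSM replicate 4 was outside the Prep1f/+ range. The difference was -0.18 (SE 0.21, 95% interval -0.66 to 0.30, limma adjusted p = 0.680), so an interval of this width holds both 0 and the value found for Dcn.

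**Figure D2:**
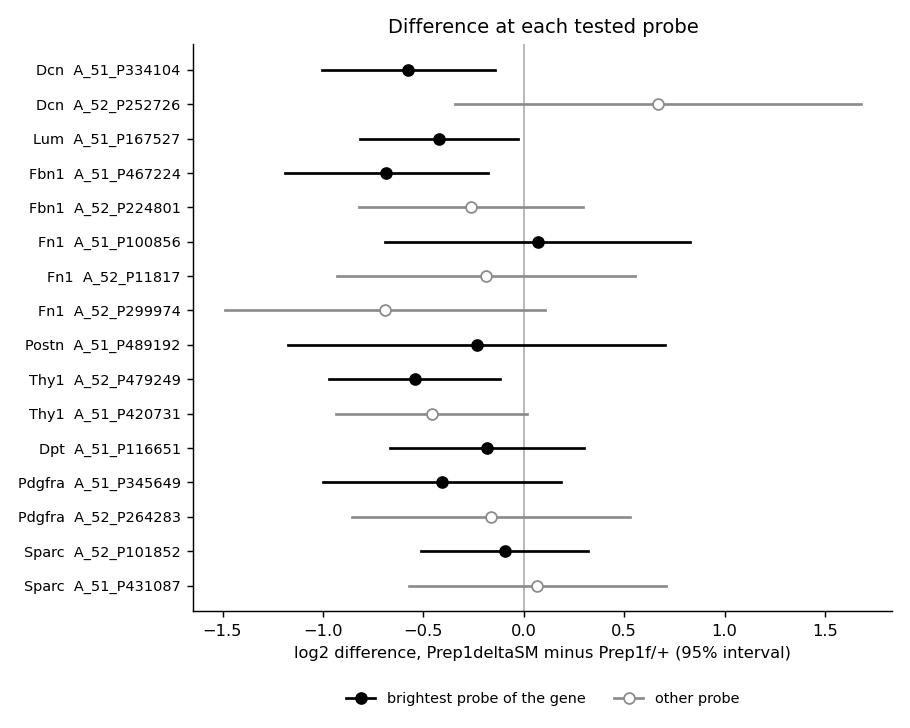
Log2 difference, Prep1deltaSM minus Prep1f/+ (horizontal axis), with its 95% interval from limma, for each of the 16 tested probes. Filled points are the brightest probe of a gene and open points its other probes. The intervals of the main probes of Dcn, Lum, Fbn1 and Thy1 lie below 0 before adjustment, and the other 12 cross it.

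Fn1, Postn and Sparc, the adhesive and matricellular genes, gave differences of -0.23 to 0.07 at their brightest probes. Their SE was 0.33, 0.41 and 0.18 in that order, beside 0.19 for the brightest probe of Dcn. Fn1 codes for fibronectin. Its brightest probe, A_51_P100856, read 0.08, -1.13, -0.55 and -1.54 in Prep1deltaSM, against -1.30, -0.55, -0.88 and -0.67 in Prep1f/+ muscles. The Prep1deltaSM values enclosed those of Prep1f/+, with replicate 1 the highest and replicate 4 the lowest of all 8 muscles. The difference was 0.07 (SE 0.33, 95% interval -0.69 to 0.83, limma adjusted p = 0.938). Its sign turned to -0.22 without Prep1deltaSM replicate 1.

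The other Fn1 probes were lower in the mean. A_52_P11817 read -2.21, -3.19, -2.76 and -3.56 in Prep1deltaSM, against -3.30, -2.67, -2.86 and -2.13 in Prep1f/+ muscles, a difference of -0.19 (SE 0.33, limma adjusted p = 0.795). A_52_P299974, furthest 5′ in the transcript, read -3.30, -4.57, -4.45 and -4.68 in Prep1deltaSM, against -3.50, -3.88, -3.99 and -2.87 in Prep1f/+ muscles. There 3 Prep1deltaSM muscles were below all Prep1f/+ muscles and replicate 1 was inside their range. That difference was -0.69 (SE 0.35, 95% interval -1.49 to 0.10, limma adjusted p = 0.343). Whether the Fn1 probes differ from each other in their response was not tested.

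Postn codes for periostin, a matricellular protein of collagen-rich tissue. Its probe A_51_P489192 at chr3:54194483-54194542 read 1.52, -0.03, 0.75 and -0.06 in Prep1deltaSM, against 1.33, 0.28, 0.22 and 1.29 in Prep1f/+ muscles. Both groups spanned more than 1 log2 unit, and the highest and the lowest muscle were both Prep1deltaSM. The difference was -0.23 (SE 0.41, 95% interval -1.17 to 0.70, limma adjusted p = 0.797). The second Postn probe, A_51_P469817, was well above background on 1 Prep1deltaSM array and 0 Prep1f/+ arrays and was not tested.

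Sparc codes for osteonectin, a matricellular protein that binds collagen and calcium. A_52_P101852, which crosses an intron within chr11:55209449-55212106, read 6.14, 5.38, 6.11 and 5.73 in Prep1deltaSM, against 5.91, 5.99, 5.71 and 6.14 in Prep1f/+ muscles. Prep1deltaSM replicate 2 was the single value below the Prep1f/+ range. The difference was -0.095 (SE 0.18, 95% interval -0.51 to 0.32, limma adjusted p = 0.815). A_51_P431087, further 3′, read 5.28, 4.10, 4.96 and 4.78 in Prep1deltaSM, against 4.38, 5.28, 4.42 and 4.77 in Prep1f/+ muscles, a difference of 0.066 (SE 0.28, limma adjusted p = 0.926).

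Much of the spread of both Sparc probes and of 2 of the 3 Fn1 probes lay between slides. The share was 85.9% and 77.9% of the variance of Fn1 probes A_51_P100856 and A_52_P11817, and 83.8% and 88.2% for Sparc probes A_52_P101852 and A_51_P431087. It was 22.6% for Fn1 probe A_52_P299974 and 34.6% for the tested Postn probe. The median over all tested probes was 38.0%, and 8.83% of them were above 75%, as were 5 of the 16 probes of the 9 genes. With the slide as a block, the unadjusted limma p was 0.0126 for Dcn, 0.0155 for Lum, 0.0048 for Fbn1 and 0.0149 for Thy1. The limma adjusted p was 0.204, 0.209, 0.179 and 0.208 in that order. In the same fit Fn1 A_51_P100856 differed by 0.07 (SE 0.17) and A_52_P11817 by -0.19 (SE 0.19). Sparc A_52_P101852 differed by -0.095 (SE 0.12) and A_51_P431087 by 0.066 (SE 0.14). The limma adjusted p of these Fn1 and Sparc probes was 0.860, 0.629, 0.688 and 0.832 in that order.

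The 9 genes did not vary alike over the muscles. At the brightest probes, the 15 pairs among Dcn, Lum, Fbn1, Thy1, Dpt and Pdgfra had correlations of 0.67 to 0.97 over the 8 arrays, with a median of 0.84. The 3 pairs among Fn1, Postn and Sparc had 0.53 to 0.75, and the 18 pairs between both sets had -0.30 to 0.54. The sets were formed after the values were seen, the pairs share arrays and the genotype difference, and the correlations are a description. Prep1deltaSM replicate 4 was the lowest muscle for 6 of the 9 genes, namely Dcn, Lum, Fbn1, Fn1, Postn and Dpt. Prep1f/+ replicate 3 was the highest for 5 genes, namely Dcn, Fbn1, Thy1, Dpt and Pdgfra, while Prep1deltaSM replicate 1 was the highest for Fn1, Postn and Sparc. For Sparc, Prep1f/+ replicate 4 was nearly as high (6.137 against 6.14).

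**Figure D3:**
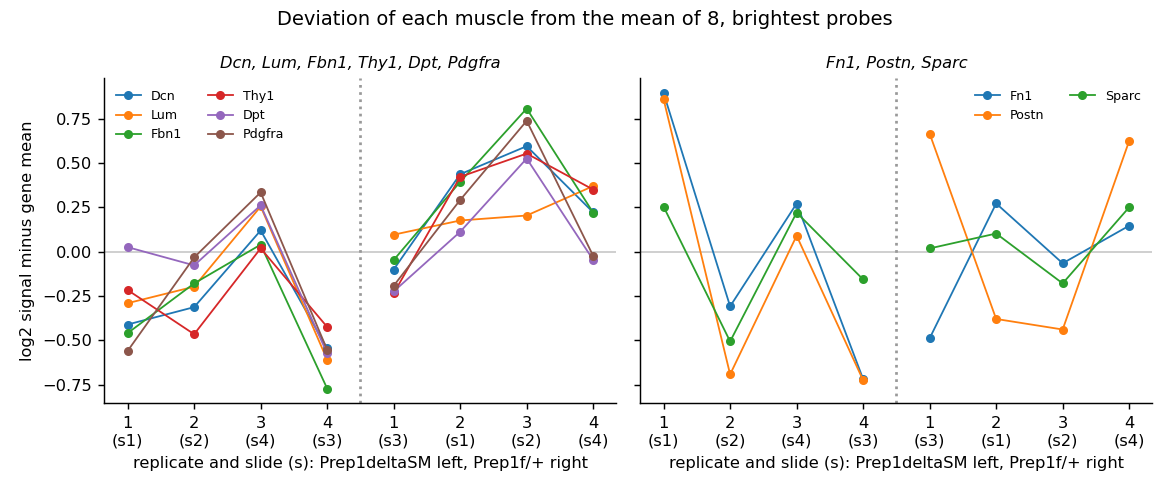
Log2 signal minus the gene's mean over 8 muscles (vertical axis) at the brightest probe, by replicate, with Prep1deltaSM left and Prep1f/+ right of the dotted line and the slide (s) in brackets. On the left, Dcn, Lum, Fbn1, Thy1, Dpt and Pdgfra run close together, with Prep1deltaSM replicate 4 low and Prep1f/+ replicate 3 high. On the right, Fn1, Postn and Sparc run apart from them, with Prep1deltaSM replicate 1 high.

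The mean deviation of the 9 genes was 0.01, -0.31, 0.18 and -0.56 in Prep1deltaSM replicates 1 to 4, against -0.06, 0.20, 0.30 and 0.23 in Prep1f/+ replicates 1 to 4. The 8 genes whose signal followed this profile most closely, by Pearson correlation over the 8 arrays, had values of 0.980 to 0.989. They were Antxr2 and Antxr1, the anthrax toxin receptors that bind matrix proteins, Col14a1, a fibril-associated collagen, Tgfbi, a matricellular protein, Pamr1, Emr1, the macrophage antigen F4/80, Lpxn, an adaptor of focal adhesions, and Abi3bp, a matrix protein. Without the 2 muscles farthest from the median of the profile, the correlations were 0.908 to 0.970. The differences of these genes ran from -0.68 (Pamr1, SE 0.33) to -0.26 (Lpxn, SE 0.14), with limma adjusted p of 0.256 to 0.409. The genes were picked over all 8 muscles by likeness to a profile that itself held the genotype difference. Neither their lower means nor the correlations without 2 muscles are independent of that choice.

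Related matrix genes were read at the brightest probe of each gene, where 0.00625% of all genes passed the adjusted p and 10.1% were lower and 5.47% higher at an unadjusted p under 0.05. No gene of the 9 lists of related genes passed the adjusted p at that probe. Of 9 tested small leucine-rich proteoglycan genes besides Dcn and Lum, 7 were lower and 2 higher in Prep1deltaSM muscles. The median was -0.53 (-0.29 without Prep1deltaSM replicate 4), and 4 were lower and 1 higher at an unadjusted p under 0.05. Ogn, which codes for osteoglycin, averaged 1.67 ± 0.37 in Prep1deltaSM and 2.35 ± 0.31 in Prep1f/+ (SD, n = 4 each), a difference of -0.68 (limma adjusted p = 0.175). Omd, the gene of osteomodulin, averaged -3.26 ± 0.24 in Prep1deltaSM and -2.49 ± 0.41 in Prep1f/+ (SD, n = 4 each), with no overlap and a limma adjusted p of 0.143. Prelp differed by -0.60 (SE 0.22) and Podn, the gene of podocan, by 0.42 (SE 0.12), with limma adjusted p of 0.214 and 0.150 in that order.

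All 15 tested genes of elastic fibres and microfibrils, the structures that fibrillin-1 builds, were lower in the mean in Prep1deltaSM muscles. At an unadjusted p under 0.05 there were 6 lower and 0 higher, the median was -0.35 (-0.20 without Prep1deltaSM replicate 4), and in 5 the groups did not overlap, against 6.75% of all genes lower and 3.72% higher. Fbln2, which codes for fibulin-2, read 3.17, 3.05, 3.31 and 3.03 in Prep1deltaSM, against 3.51, 3.98, 3.92 and 3.79 in Prep1f/+ muscles. All Prep1deltaSM muscles were below all Prep1f/+ muscles, with a difference of -0.66 (SE 0.12) and a limma adjusted p of 0.097. Efemp1, the gene of fibulin-3, averaged -0.36 ± 0.31 in Prep1deltaSM and 0.71 ± 0.68 in Prep1f/+ (SD, n = 4 each), a difference of -1.06 (SE 0.32) without overlap (limma adjusted p = 0.162). Fbln1 differed by -0.88 (SE 0.27) at its brightest probe and by -0.55 (SE 0.59) at its other probe, with limma adjusted p of 0.174 and 0.652. Mfap5, a microfibril-associated glycoprotein gene, differed by -0.55 (SE 0.18, limma adjusted p = 0.178).

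Matricellular genes other than Postn and Sparc were lower in 16 of 17 tested, with 3 lower and 0 higher at an unadjusted p under 0.05 and a median of -0.40. The median was -0.62 without Prep1deltaSM replicate 1 and -0.61 without Prep1deltaSM replicate 3. Nov, a CCN family gene, averaged -3.06 ± 0.38 in Prep1deltaSM and -2.35 ± 0.18 in Prep1f/+ (SD, n = 4 each), without overlap (limma adjusted p = 0.133). Ecm1 differed by -0.65 at both of its probes, with limma adjusted p of 0.188 and 0.097. Cyr61, another CCN family gene, differed by -0.83 (SE 0.30, limma adjusted p = 0.215), and Tgfbi by -0.52 (SE 0.25).

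The receptor and adhesion genes that work with Fn1 were lower in 7 and higher in 3 of 10 tested (median difference -0.07). The median was -0.0055 without Prep1deltaSM replicate 3 and -0.0057 without Prep1f/+ replicate 1, and it was -0.12 without Prep1deltaSM replicate 4 and -0.11 without Prep1f/+ replicate 3. Itgb5 averaged 4.37 ± 0.17 in Prep1deltaSM and 4.74 ± 0.09 in Prep1f/+ (SD, n = 4 each), without overlap (limma adjusted p = 0.156). Itga5, the alpha chain of the classical fibronectin receptor, differed by -0.76 (SE 0.28, limma adjusted p = 0.216). Itgav and Itga4 differed by 0.30 and 0.31 at their brightest probes (SE 0.17 and 0.18, limma adjusted p = 0.408 for both). There Itgav was lower on 1 and Itga4 on 0 of the 4 slides. The other Itgav probes differed by 0.31 and 0.078, and the other Itga4 probes by 0.0082, 0.25 and -0.25.

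Besides Pdgfra, 6 PDGF genes were tested, and 5 had a lower and 1 a higher mean (median difference -0.26, and -0.12 without Prep1deltaSM replicate 2). Pdgfc, a ligand of the receptor Pdgfra codes for, differed by -0.65 (SE 0.22) and -0.74 (SE 0.29) at its probes, with limma adjusted p of 0.188 and 0.246. Pdgfrb, the gene of the beta receptor, differed by -0.23 (SE 0.13) and Pdgfrl by -0.43 (SE 0.31). Pdgfd differed by -0.30 at its brightest probe and by 0.34 at the other.

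Other genes of fibroblasts and fibro-adipogenic progenitors were lower in 19 of 20 tested, with 9 lower and 0 higher at an unadjusted p under 0.05 and a median of -0.37. Cd34, a surface sialomucin of progenitors and endothelium, read 4.69, 4.44, 4.67 and 4.54 in Prep1deltaSM, against 4.83, 4.95, 5.07 and 4.90 in Prep1f/+ muscles. The groups did not overlap, and the difference was -0.35 (SE 0.096, limma adjusted p = 0.139). Pi16 differed by -0.83 (SE 0.24) and Cygb, the gene of cytoglobin, by -0.63 (SE 0.19), with limma adjusted p of 0.155 and 0.157. Mfap5 is in this list too. The 1 gene that was higher was Ly6a, by 0.07 (SE 0.20). The count of lower genes includes Tcf4 of chromosome 18, whose place as a fibroblast marker was not checked. Ly6a and Tcf4 were named after their values were seen.

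The proteoglycans above bind collagen fibrils. The median difference of the 13 tested collagen genes was -0.29, with 10 lower and 3 higher, none at an unadjusted p under 0.05. The median was -0.17 without Prep1deltaSM replicate 2, -0.47 without replicate 3 and -0.10 without replicate 4 of that genotype, and -0.17 without Prep1f/+ replicate 4. Col6a1 differed by -0.37 (SE 0.20) and Col14a1 by -0.57 (SE 0.34), while Col1a1 differed by 0.07 (SE 0.41). Col1a1 was named after its value was seen. Of 19 tested genes of matrix crosslinking, processing and proteolysis 15 had a lower and 4 a higher mean (median difference -0.22, and -0.14 without Prep1deltaSM replicate 4). Among them Loxl1 differed by -0.51 (SE 0.19) and Plod1, a lysyl hydroxylase gene, by 0.25 (SE 0.11), with limma adjusted p of 0.224 and 0.281. Of 12 tested TGF-beta signalling genes 8 had a lower and 4 a higher mean (median difference -0.13, and -0.079 without Prep1f/+ replicate 4). Tgfbr3 differed by -0.35 (limma adjusted p = 0.178).

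**Figure D4:**
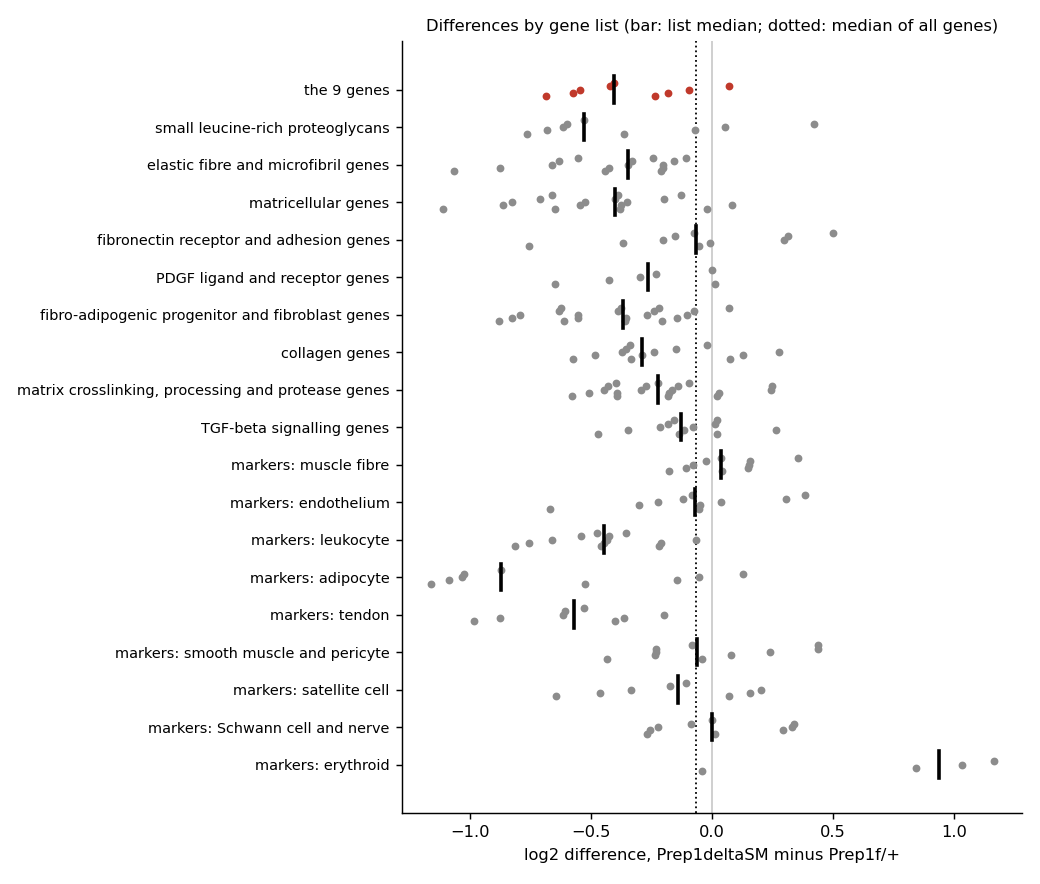
Log2 difference, Prep1deltaSM minus Prep1f/+ (horizontal axis), of each tested gene at its brightest probe, by gene list. Red points are the 9 genes and grey points are listed genes. Black bars give list medians, and the dotted line marks the median of all genes, -0.07. The medians of the proteoglycan, matricellular, leukocyte, adipocyte and tendon lists lie at -0.40 or lower, and those of muscle fibre, smooth muscle and Schwann cell markers lie between -0.06 and 0.04.

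Markers of some other cell types were lower in the mean as well. All 13 tested leukocyte markers were lower, with a median of -0.45 (-0.26 without Prep1deltaSM replicate 4), and their mean deviation was -0.54 to 0.17 in Prep1deltaSM and -0.10 to 0.50 in Prep1f/+ muscles. Itgam and Cd79a were too dim to be tested. All 8 tendon markers were lower, with a median of -0.57 (-0.25 without Prep1deltaSM replicate 4), and their mean deviation was 0.19, -0.64, 0.35 and -1.05 in Prep1deltaSM replicates 1 to 4, against 0.35, 0.39, -0.08 and 0.48 in Prep1f/+ replicates 1 to 4. Of 9 tested adipocyte markers 8 were lower, with a median of -0.87 and mean deviations of 0.78, -1.65, 0.62 and -1.04 in Prep1deltaSM, against -0.02, 0.81, 0.83 and -0.34 in Prep1f/+ muscles. The adipocyte median was -1.50, -0.18, -1.42 and -0.47 without Prep1deltaSM replicates 1, 2, 3 and 4 in turn, and -0.57 without Prep1f/+ replicate 2. Lep was too dim to be tested. Prep1deltaSM replicates 2 and 4 were thus low for tendon markers, adipocyte markers and the mean of the 9 genes alike. The part of tendon, fat and leukocytes in the values of the 9 genes was not tested. The tendon list shares Kera and Fmod with the proteoglycan list and Thbs4 with the matricellular list.

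The erythroid list stood farthest from 0, on the higher side. Its 4 tested markers had a median of 0.94 (0.48 without Prep1deltaSM replicate 2), with -0.35 to 1.58 in Prep1deltaSM and -0.90 to 0.74 in Prep1f/+ muscles. Endothelial markers had a median of -0.07, and their mean deviation was -0.21 to 0.08 in Prep1deltaSM and -0.16 to 0.41 in Prep1f/+ muscles. Smooth muscle and pericyte markers had a median of -0.06, with -0.10 to 0.10 in Prep1deltaSM and -0.05 to 0.06 in Prep1f/+ muscles. Its genes differed in both directions, with 3 of 10 higher and 1 lower at an unadjusted p under 0.05. Over all genes 5.47% were higher and 10.1% lower at that p. In 3 of the 10 the groups did not overlap, against 3.72% of all genes higher and 6.75% lower. At their brightest probes Acta2 and Myh11, contractile genes, both differed by 0.44 without overlap (limma adjusted p 0.128 and 0.136). Cspg4, the pericyte proteoglycan NG2, differed by -0.44 at its brightest probe (limma adjusted p = 0.180). The other Acta2 probes differed by 0.14, -0.21 and 0.0095, and the other Cspg4 probe by -0.18. Abcc9 differed by 0.24 at its brightest probe, without overlap, and by 0.30 and 0.37 at its other probes. The limma adjusted p of the Abcc9 probes was 0.218, 0.155 and 0.127 in that order. Satellite cell markers had -0.14, with -0.29 to 0.06 in Prep1deltaSM and 0.02 to 0.15 in Prep1f/+ muscles, and Myf5 was not tested. Of the 8 tested satellite cell markers 5 were lower and 3 higher, with differences from -0.64 to 0.20. At an unadjusted p under 0.05 there were 2 lower and 0 higher. The lowest difference of that list was at Cdh15, the gene of M-cadherin. Cdh15 averaged 2.10 ± 0.15 in Prep1deltaSM and 2.75 ± 0.06 in Prep1f/+ (SD, n = 4 each), without overlap (limma adjusted p = 0.097). Acta2, Myh11, Cspg4, Abcc9 and Cdh15 were named after their values were seen. Schwann cell markers had 0.0015, with -0.10 to 0.06 in Prep1deltaSM and -0.26 to 0.61 in Prep1f/+ muscles. With 1 array left out, the median ran from -0.16 to 0.018 for endothelium, -0.17 to -0.020 for smooth muscle, -0.27 to -0.030 for satellite cells, -0.12 to 0.27 for Schwann cells and 0.0050 to 0.083 for muscle fibres.

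Promoter windows from RefSeq (GRCm38.p6), 250 bases before to 50 after a gene's start, were at hand for Dpt, Fbn1, Postn, Pdgfra and Sparc, 6 windows in all. The motif TGACAG, the half-site known for Prep1 and Meis proteins, was searched on both strands and found in 1 of the 6, that of Pdgfra. There it lay on the gene's strand, began 3 bases before the start and ran across it. Of all 32851 such windows 19.2% held it. TGATTGAC, letters of a composite Pbx and Prep1 site that share TGAC with the half-site, was in 0 of the 6 and in 0.77% of all windows.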

How the data were processed

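Total RNA of 8 muscles, 1 mouse and 1 array each, was hybridised to single-colour Agilent arrays. The authors deposited spot intensities, which per the file headers come from protocol GE1_107_Sep09 of Feature Extraction 10.5.1.1, with background subtracted. The submitters' processing notes name version 9.1, and which one made the values was not settled. A value table that the authors deposited beside them holds processed intensities. Its columns were linear, had medians from 12.66 to 13.25 and were not centred. It was used as an alternative for 13072 probes within 0.1 log2 of the scanner values after quantile normalization.

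From each log2 intensity the 75th percentile of the array's non-control spots was subtracted. Spots called non-uniform or population outliers were left out, and spots of a probe were averaged. A probe was kept where at least 4 of 8 arrays had it well above background (24487, of which 24476 were tested, 11 having missing values). Each probe was fitted in limma 3.58.1 (lmFit, then eBayes, under R 4.3.3) and adjusted by Benjamini-Hochberg over all probes. Differences are Prep1deltaSM minus Prep1f/+. Values per gene use its brightest probe. The fit was tested on simulated data. Exact permutation tests were two-sided over 70 assignments of the 8 arrays, which did not keep the pairing of genotypes on a slide.

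The 9 genes and all lists were chosen with earlier results of these data known. Named besides the 9 genes were up to 4 genes per related list with the smallest p, the 8 genes most alike in profile, and Pknox1. List names follow the array, and 3 were matched through a synonym. A gene of the marker lists is not reported here. Alternatives were other normalizations, filters and probe rules, the authors' values, a trended robust fit, a slide block and each array left out.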

Additional observations from a re-analysis of the deposited data

Results flagged for a closer look

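Single muscles stood apart from the other 3 of their group in 2 of 72 groups of 4 values examined by the ratio of their gap to the group's range (Dixon's test at 95%), and chance gives about 1 such group in 20. The first was Fn1 at probe A_52_P299974, where Prep1deltaSM replicate 1 was the highest of its group with a ratio of 0.839. That muscle was also the highest of all 8 at the brightest probe of Fn1, Postn and Sparc. For Sparc this was a near tie, 6.14 against 6.137 in Prep1f/+ replicate 4. The second was the mean of the Schwann cell and nerve markers, where Prep1f/+ replicate 3 was the highest of its group with a ratio of 0.859. Without that muscle the median difference of the list was 0.27, beside 0.0015 with it. No cause was tested.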

How the results depend on the processing

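The count of probes of the 9 genes past an adjusted p of 0.05 was 0 under each of the 18 alternatives. The median over the 9 genes stayed below 0 in each, from -0.58 to -0.29 with an array left out and from -0.42 to -0.24 otherwise. The 4 probes lower at an unadjusted p under 0.05 became 2 with quantile normalization and 2 with the mean of each gene's probes. The count was 0 of 5 probes present with the authors' values. It was 5 with median centring, 5 with the slide as a block, and 2 to 5 with an array left out. Over all tested probes, 1 passed the adjusted p, against 341 with normexp and quantile normalization, 20 with the trended robust fit, 0 with no filter, 0 with the slide as a block, and 0 to 6 with an array left out. Taking the mean of a gene's probes turned Dcn to 0.046 and Fn1 to -0.27. Leaving out an array turned the sign of 5 probes: Fn1 A_51_P100856 (-0.22 to 0.32), Fn1 A_52_P11817 (-0.43 to 0.023), Pdgfra A_52_P264283 (-0.40 to 0.13), Sparc A_51_P431087 (-0.10 to 0.29) and Sparc A_52_P101852 (-0.20 to 0.058). For Dcn the averaging joins a probe of the opposite sign, and for the rest the cause was not tested. Dim signal left 1 of the 17 probes untested. The slide block is the paired fit, with 1 mouse of each genotype per slide. The replicate numbers only name mice. Medians of related and marker lists that moved by over 1.5 times without an array stand beside those lists.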
